A study of Mus musculus with 13 samples.

Results

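The TGF-beta signalling genes described here are 7 human transcripts, 1 for each of the genes TGFB1, TGFBR2, TGFBR1, SMAD2, SMAD3, SMAD4 and SMAD7. They were taken by their Ensembl transcript IDs from the 244939 transcripts listed for each library. None of the 7 passed the test for a difference between OCA and vehicle tumours, nor did any of the 74973 transcripts tested with edgeR. The values of each of the 7 overlapped between the groups, as for all but 0.123% of the tested transcripts. The transcripts of TGFB1, the ligand, and TGFBR2, the type II receptor, were the most abundant of the 7 in every library. The transcript of TGFBR1, the type I receptor, varied far more between tumours than the other 6.

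The samples were mammary tumours of MDA-MB-231, a human breast cancer cell line of the triple-negative kind, grown in female NSG mice aged 12 to 13 weeks when injected. Vehicle mice received 40% DMSO with 60% polyethylene glycol by mouth every day (8 treated, 7 sequenced). OCA mice received obeticholic acid, a bile acid mimetic and agonist of the bile acid receptor FXR, at 30 mg per kg in that vehicle by the same route (7 treated, 6 sequenced). The labels call the mice NSG and immunocompetent, although NSG mice lack mature T and B lymphocytes and natural killer cells. Dosing began at a tumour volume of 80 to 150 mm3, and the design text gives 14 days of growth. All tumours derive from a single cell line and each library is taken as a separate mouse. The labelled cell type was not checked against markers, since no table used here pairs the human transcript IDs with gene names beyond the 7.

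TGF-beta is a secreted cytokine that binds TGFBR2, which then recruits and phosphorylates TGFBR1. Active TGFBR1 phosphorylates SMAD2 and SMAD3, which join SMAD4 and enter the nucleus to regulate genes. SMAD7 is itself induced by the pathway and acts back on the receptors as an inhibitor. In advanced breast cancer the pathway is known for promoting invasion and metastasis, and MDA-MB-231 is a widely used TGF-beta-responsive line. The values below are RNA levels of 1 listed transcript per gene. They measure neither the other transcripts of the gene, nor protein, nor SMAD phosphorylation. How far RNA of mouse cells enters these values is not known, since the handling of mouse reads is not given.

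The libraries held 34015674 to 49844746 estimated reads in the vehicle group and 44150968 to 50596490 in the OCA group. The 3 libraries under 40000000 reads were all vehicle (replicates 2, 3 and 5). Transcripts of at least 4000 bases took 26.6% ± 0.564 of the reads in vehicle (SD, n = 7) and 28.0% ± 0.743 in OCA libraries (SD, n = 6), and 5 of the 7 transcripts are that long. The numbers the labels give the libraries fall into a lower series (3 vehicle, 4 OCA) and an upper series (4 vehicle, 2 OCA), whose meaning is not given. The 3 libraries of low depth belong to the upper series. An earlier analysis of these data had set vehicle replicates 1 and 4 and OCA replicate 2 apart from the rest on the first principal component.

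Levels between the genes were compared on the deposited TPM, which is scaled to transcript length and to the same sum in every library. The TGFB1 transcript, ENST00000221930.6 of 2780 bases, had a mean of 93.8 TPM over the 13 libraries and stood above 99.5% of all transcripts. The TGFBR2 transcript, ENST00000295754.10 of 4530 bases, had a mean of 75.4 TPM. TGFB1 was above TGFBR2 in 11 of 13 libraries, with a ratio of 0.832 to 1.74, so these neighbours were not separated beyond their spread. Next came the SMAD3 transcript, ENST00000327367.9 of 6464 bases, at a mean of 12.3 TPM, and the SMAD7 transcript, ENST00000262158.8 of 3341 bases, at 5.68 TPM. The SMAD4 transcript, ENST00000342988.8 of 8772 bases, averaged 2.48 TPM and the TGFBR1 transcript, ENST00000374994.9 of 6492 bases, 1.23 TPM. The SMAD2 transcript, ENST00000262160.11, was last at a mean of 0.105 TPM. At 34626 bases it is the longest of the 7, and it held 128 to 236 estimated reads per library. Its low TPM reflects the division by that length as well as the reads. In CPM, which is not scaled to length, its mean was 3.69, against 7.88 for TGFBR1. From TGFBR2 downward, each transcript was above the next in all 13 libraries, although the ranges of SMAD4 and TGFBR1 over all libraries overlapped.

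**Figure D1:**
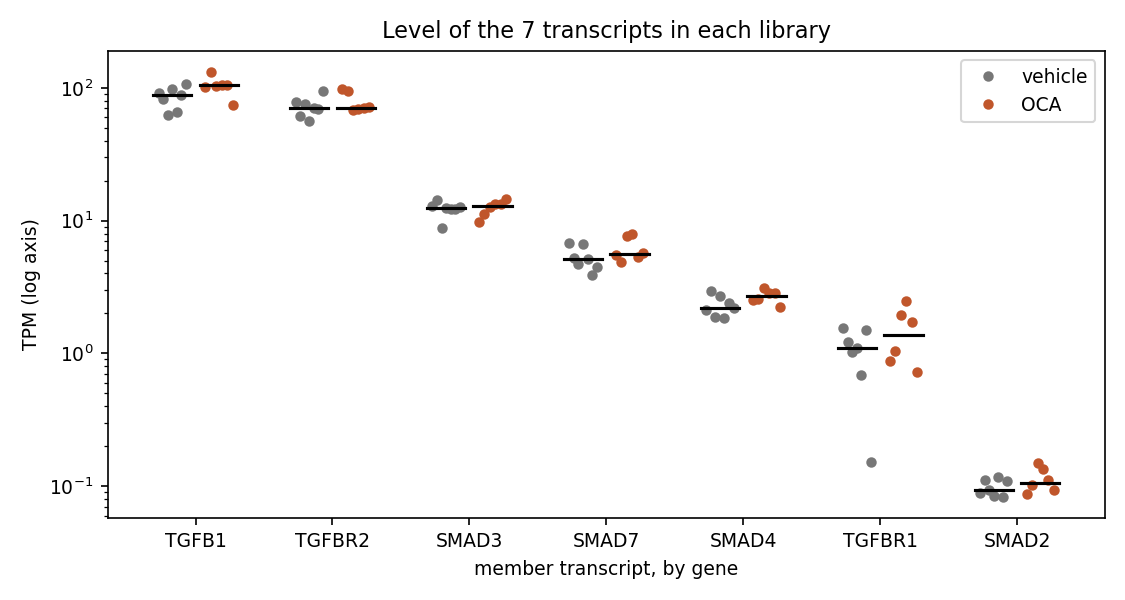
TPM on a log axis for the 7 transcripts, with 1 point per library, vehicle in grey (7 libraries) and OCA in orange (6 libraries), and a line at each group's median. The transcripts span from about 0.1 TPM for SMAD2 to about 94 TPM for TGFB1 and keep the same order of medians in both groups, and 1 vehicle library holds TGFBR1 at 0.153 TPM.

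OCA was compared with vehicle to see whether daily dosing goes with a change in RNA of the TGF-beta pathway in these tumours. By edgeR's quasi-likelihood test, with adjustment over all 74973 transcripts tested, 0 of the 7 transcripts had an adjusted p under 0.05, against 0% of all tested transcripts. None of the 7 had an unadjusted p under 0.05, against 2.77% of all tested. DESeq2 with and without a low-count filter also called 0 of the 7, against 0.0608% and 0.37% of the transcripts it gave an adjusted p, and limma-voom called 0. After the filter, DESeq2 left SMAD2 without an adjusted p. All 7 had passed the filter on low counts. The OCA and vehicle CPM ranges overlapped for each of the 7, as for nearly all transcripts (0.123% of those tested did not overlap). The fitted log2 fold change was above 0 for 6 of the 7, against 51% of all tested transcripts, with a median of 0.19 over the 7 and 0.01 over all. Among tested transcripts at a mean CPM of 1 or more, those of at least 4000 bases had a median of 0.06 and shorter ones -0.02.

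**Figure D2:**
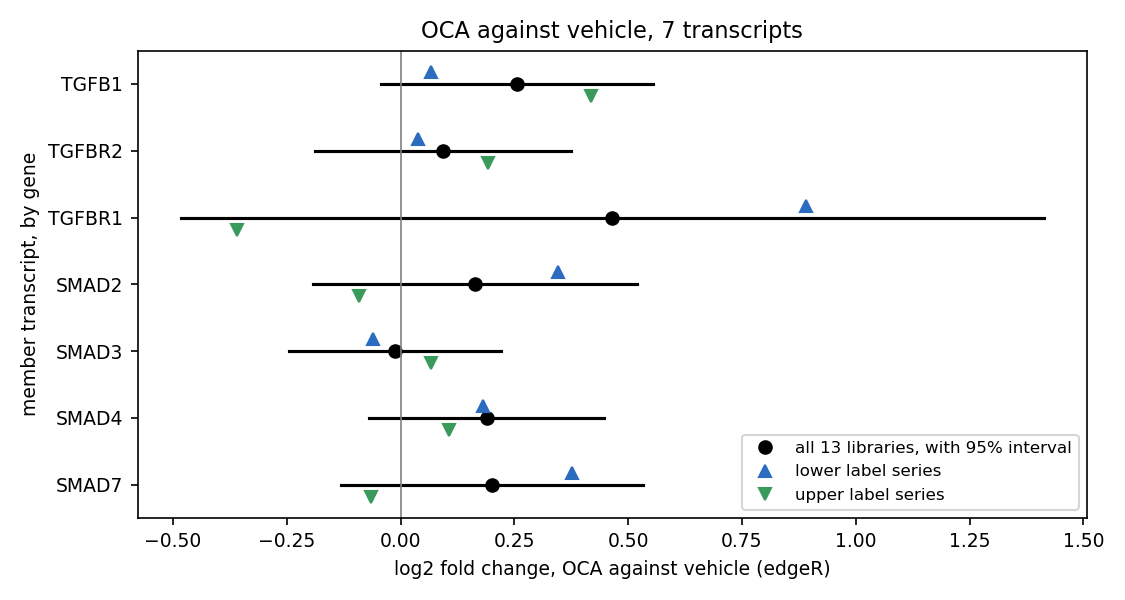
Log2 fold change of OCA against vehicle for the 7 transcripts. Black points and lines are the edgeR fit on all 13 libraries with its 95% interval, and triangles are fits within the lower (upward) and upper (downward) label series. Every interval includes 0, from the narrowest for SMAD3 (-0.24 to 0.22) to the widest for TGFBR1 (-0.48 to 1.41).

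TGFB1 encodes the ligand. Its transcript measured 62.5 TPM at the lowest, 88.4 at the median and 107 at the highest in vehicle tumours, and 73.9, 104.9 and 132 TPM in OCA tumours. OCA replicate 2 was above every vehicle library, vehicle replicates 3 and 5 were below every OCA library, and the rest overlapped. On the scale of CPM with TMM-scaled library sizes, the means were 266 ± 47.5 in OCA (SD, n = 6) and 223 ± 38.9 in vehicle (SD, n = 7). The log2 fold change was 0.26 (SE 0.14, 95% interval -0.04 to 0.55, edgeR adjusted p = 1). Of the 6 OCA libraries, 5 lay above the vehicle median. As a fold, the interval runs from 0.97 to 1.47.

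Library depth differed along with TGFB1. The 3 vehicle libraries under 40000000 reads held 62.5 to 82.4 TPM, the lowest values of that group, and the other 4 vehicle libraries held 88.4 to 107 TPM. Without these 3 libraries the log2 fold change of TGFB1 was 0.09 (edgeR adjusted p = 1). Within the label series it was 0.07 in the lower (255 CPM in vehicle, 267 in OCA) and 0.42 in the upper series (199 CPM in vehicle, 265 in OCA), where the low-depth libraries lie. Of those other 4, vehicle replicate 7 had the fewest reads (44957208) yet held the highest TGFB1 of the vehicle group. OCA replicate 6, the OCA library with the fewest reads (44150968), held the lowest TGFB1 of its group. Without it the log2 fold change was 0.34 (95% interval 0.07 to 0.61, edgeR adjusted p = 1, unadjusted p under 0.05). The lowest value with 1 library left out was 0.18, in the absence of OCA replicate 2. Among the 10 libraries over 40000000 reads, TGFB1 on the log2(CPM + 0.5) scale correlated with the library total at Pearson's r = 0.57 (permutation p = 0.0816, adjusted p = 0.529 over the 7 transcripts) and Spearman's rho = 0.25 (permutation p = 0.493, adjusted p = 0.751). Without the 2 libraries farthest from the median total, OCA replicates 2 and 6, r was -0.52, so that relation rests on those libraries. Within the lower series r was -0.26 (n = 7), and the upper series left 3 such libraries, too few for a value. The part of depth in the TGFB1 difference was not tested further. CPM and TPM are shares of the reads assigned to human transcripts, so they do not count cancer cells, and the handling of mouse reads is not given. In bulk tumours a change in the mix of cancer cells and a change in RNA per cell cannot be told apart. This holds for this transcript and for the others.

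**Figure D3:**
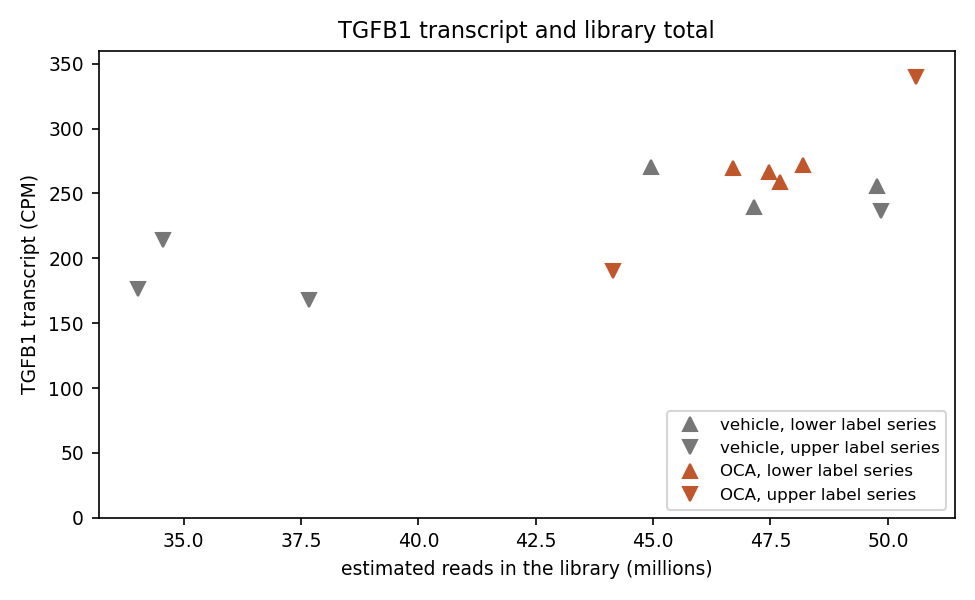
TGFB1 transcript in CPM, with the axis starting at 0, against the estimated reads of each of the 13 libraries. Grey is vehicle and orange is OCA, upward triangles are the lower and downward triangles the upper label series. The 3 vehicle libraries under 40000000 reads and OCA replicate 6 are the 4 lowest in TGFB1.

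TGFBR2 encodes the receptor that binds the ligand first. Its transcript measured 56.2, 70.9 and 95.3 TPM in vehicle tumours (lowest, median, highest) and 68.7, 71.1 and 98.2 TPM in OCA tumours. The group medians nearly coincided, and vehicle replicate 7 with OCA replicates 1 and 2 formed the upper end at 94.7 to 98.2 TPM. Mean CPM was 342 ± 62.8 in OCA (SD, n = 6) and 321 ± 52.4 in vehicle (SD, n = 7), and the log2 fold change was 0.09 (SE 0.13, 95% interval -0.19 to 0.37, edgeR adjusted p = 1). It was 0.04 within the lower and 0.19 within the upper label series, and with 1 library left out ran from 0.02 without OCA replicate 1 to 0.16 without vehicle replicate 7. The transcript held 9610 to 20966 estimated reads per library, and its coefficient of variation in CPM was 16.3% in vehicle and 18.4% in OCA tumours.

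TGFBR1 encodes the receptor that phosphorylates SMAD2 and SMAD3. Its transcript measured 0.153, 1.09 and 1.55 TPM in vehicle tumours (lowest, median, highest) and 0.728, 1.39 and 2.49 TPM in OCA tumours. OCA replicates 3, 4 and 5, at 1.72 to 2.49 TPM, were above every vehicle library, while OCA replicates 1, 2 and 6, at 0.728 to 1.05 TPM, lay below the vehicle median. The lowest value was that of vehicle replicate 7, which rested on 44.4 estimated reads, and the highest was 16.3 times it. Mean CPM was 9.26 ± 4.35 in OCA (SD, n = 6) and 6.71 ± 3.15 in vehicle (SD, n = 7), with a log2 fold change of 0.47 (SE 0.44, 95% interval -0.48 to 1.41, edgeR adjusted p = 1). The upper end of the interval is a 2.66-fold rise and the lower end a fold of 0.716, the widest interval of the 7. The log2 fold change was 0.25 without OCA replicate 4 and 0.27 without vehicle replicate 7, and reached 0.61 without OCA replicate 6.

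The 3 OCA libraries with high TGFBR1 all belong to the lower label series. Within that series the log2 fold change was 0.89 (5.99 CPM in vehicle, 11.1 in OCA) and within the upper series -0.36 (7.24 CPM in vehicle, 5.63 in OCA). The difference between the series, upper minus lower and tested as an interaction, was -1.25 on the log2 scale (edgeR adjusted p = 1), and 0 of the 7 transcripts passed that test, against 0.008% of all tested. The fitted variation between libraries of a group was 56.1% for TGFBR1, above that of 85.7% of the 8332 tested transcripts of like abundance (within a factor of 1.5 in CPM), whose median was 30.8%. Counting error alone is 4.78% to 5.91% at this depth. The error of sharing reads among the transcripts of a gene is not in the values used here, and its part in the spread was not tested.

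The receptor pair was far apart in level. TGFBR1 stood at 0.00161, 0.0194 and 0.0216 of the TGFBR2 level in vehicle tumours (lowest, median and highest TPM ratio), and at 0.00889, 0.0178 and 0.0357 in OCA tumours. The ranges overlapped and the medians were close. The ratio compares 1 listed transcript of each gene, not the genes.

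SMAD2 and SMAD3 are the receptor-activated SMADs. The SMAD3 transcript measured 8.83, 12.4 and 14.4 TPM in vehicle tumours (lowest, median, highest) and 9.70, 13.0 and 14.5 TPM in OCA tumours. Apart from vehicle replicate 3 and OCA replicates 1 and 2, the libraries lay close together, at 12.2 to 14.5 TPM in both groups. Mean CPM was 78.2 ± 10.6 in OCA (SD, n = 6) and 78.8 ± 9.98 in vehicle (SD, n = 7), with a log2 fold change of -0.01 (SE 0.11, 95% interval -0.24 to 0.22, edgeR adjusted p = 1). As a fold, the interval runs from 0.844 to 1.17, the narrowest of the 7. The sign of so small a value turned in 9 of 32 alternative fits. Within the label series it was -0.06 (lower) and 0.07 (upper).

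The SMAD2 transcript measured 0.0834, 0.0939 and 0.116 TPM in vehicle tumours (lowest, median, highest) and 0.0872, 0.106 and 0.149 TPM in OCA tumours. OCA replicates 3 and 4 were above every vehicle library, and the other 4 OCA libraries lay within the vehicle range. Mean CPM was 3.91 ± 0.775 in OCA (SD, n = 6) and 3.49 ± 0.481 in vehicle (SD, n = 7), with a log2 fold change of 0.16 (SE 0.16, 95% interval -0.19 to 0.52, edgeR adjusted p = 1). The value turned to -0.13 with an offset for transcript length (edgeR adjusted p = 1), which at 34626 bases rests on few transcripts, since 2 tested transcripts at a mean CPM of 1 or more, this one included, were within a factor of 1.2 of its length. Within the label series it was 0.34 (lower) and -0.09 (upper). With 1 library left out it ran from 0.08 without OCA replicate 3 to 0.23 without OCA replicate 1. Its fitted variation of 27.2% was above that of 5.39% of transcripts of like abundance, and counting error alone is 7.38% to 8.28%. The SMAD2 transcript stood at 0.00681 to 0.0106 of the SMAD3 level in vehicle and 0.00648 to 0.0117 in OCA tumours (TPM ratios). These ratios compare 1 listed transcript of each gene, not the genes, and depend on the lengths of both.

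SMAD4 is the partner that both receptor-activated SMADs share. Its transcript measured 1.84, 2.21 and 2.96 TPM in vehicle tumours (lowest, median, highest) and 2.23, 2.71 and 3.11 TPM in OCA tumours. All 6 OCA libraries were above the vehicle median and 4 of 7 vehicle libraries were below every OCA library, yet vehicle replicate 2 exceeded 5 of the 6 OCA libraries, so the groups overlapped. Mean CPM was 23.2 ± 2.41 in OCA (SD, n = 6) and 20.3 ± 3.58 in vehicle (SD, n = 7), with a log2 fold change of 0.19 (SE 0.12, 95% interval -0.07 to 0.45, edgeR adjusted p = 1). Without vehicle replicate 2 it was 0.25 (edgeR adjusted p = 1, unadjusted p under 0.05), and without vehicle replicate 5 it was 0.14. The value was 0.18 within the lower and 0.11 within the upper label series, and 0.08 with the offset for transcript length.

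SMAD7 is the inhibitory SMAD that the pathway induces. Its transcript measured 3.86, 5.12 and 6.74 TPM in vehicle tumours (lowest, median, highest) and 4.86, 5.63 and 7.96 TPM in OCA tumours. OCA replicates 3 and 4, at 7.73 and 7.96 TPM, were above every vehicle library, and the 4 other OCA libraries fell among the vehicle values. Mean CPM was 19.3 ± 3.93 in OCA (SD, n = 6) and 16.8 ± 3.27 in vehicle (SD, n = 7), with a log2 fold change of 0.20 (SE 0.15, 95% interval -0.13 to 0.53, edgeR adjusted p = 1). Without the 3 libraries apart on the first component it was 0.42 (edgeR adjusted p = 1, unadjusted p under 0.05). Vehicle replicates 1 and 4, left out there, were the vehicle libraries highest in SMAD7, and OCA replicate 2, also left out, was the OCA library lowest in it. Within the label series it was 0.38 (lower) and -0.06 (upper). With 1 library left out it ran from 0.11 without OCA replicate 4 to 0.26 without vehicle replicate 4. SMAD7 relative to SMAD4 gave a TPM ratio of 2.33 ± 0.563 in vehicle (SD, n = 7) and 2.30 ± 0.388 in OCA (SD, n = 6).

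**Figure D4:**
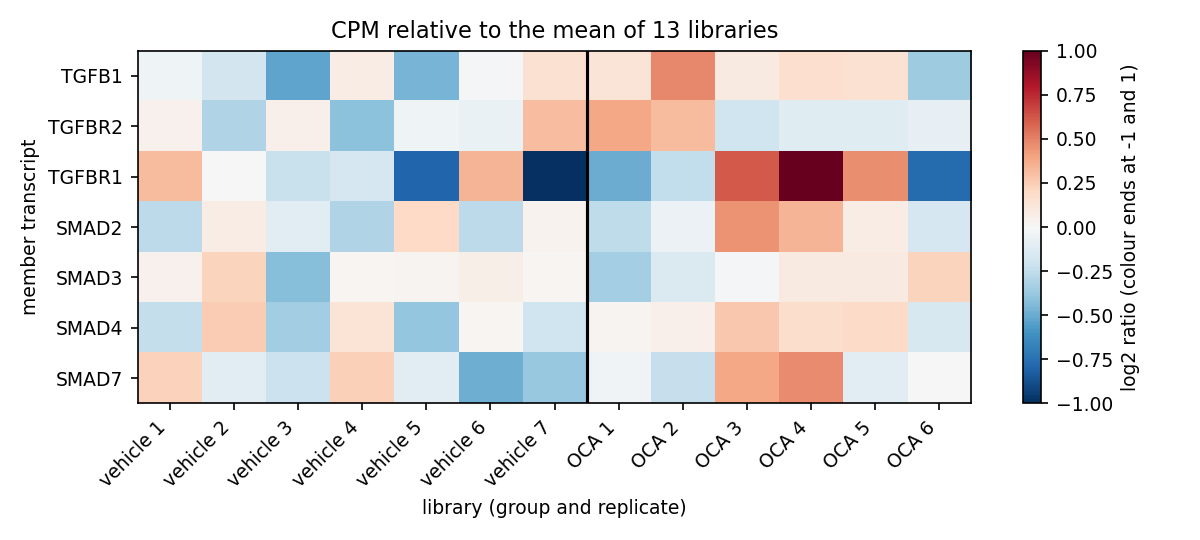
CPM of each transcript in each of the 13 libraries as a log2 ratio to its mean over all libraries, with colours ending at -1 and 1 and a line between vehicle (left) and OCA (right). OCA replicates 3 and 4 are the highest libraries in TGFBR1, SMAD2 and SMAD7. In SMAD4 both are above the mean, but vehicle replicate 2 and OCA replicate 5 exceed OCA replicate 4. Vehicle replicate 7 is lowest in TGFBR1.

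No pair of the 7 transcripts passed a test of correlation across the tumours after adjustment. Of the 21 pairs, correlated over the 13 libraries on the log2(CPM + 0.5) scale, 2 had an unadjusted permutation p under 0.05 for Pearson's r and 4 for Spearman's rho, and 0 after adjustment over the pairs by either. TGFB1 and SMAD4 had r = 0.60 (permutation p = 0.0321, adjusted p = 0.304) and rho = 0.49 (permutation p = 0.0935, adjusted p = 0.327). Without vehicle replicates 3 and 5, the libraries farthest from the TGFB1 median, that r was 0.20, so it depends in part on those libraries. It was 0.51 within the OCA and 0.50 within the vehicle libraries, and 0.48 to 0.71 with 1 library left out. Within the lower label series it was -0.02 and within the upper 0.55. TGFBR2 and SMAD3 had r = -0.57 (permutation p = 0.0406, adjusted p = 0.304) and rho = -0.59 (permutation p = 0.0364, adjusted p = 0.253), with -0.62 in both label series and -0.31 without OCA replicates 1 and 2. The receptor pair TGFBR2 and TGFBR1 had r = -0.49 (permutation p = 0.0899, adjusted p = 0.378) and rho = -0.57 (permutation p = 0.0482, adjusted p = 0.253), with -0.62 in the lower and 0.04 in the upper series, and -0.60 without OCA replicates 1 and 2. TGFBR1 and SMAD4 had the highest rho, 0.64 (permutation p = 0.0209, adjusted p = 0.253), with r = 0.53 (permutation p = 0.0534, adjusted p = 0.304). For this pair r was 0.89 in the lower and 0.33 in the upper series, and 0.55 without vehicle replicate 7 and OCA replicate 4. TGFBR2 and SMAD4 had rho = -0.62 (permutation p = 0.0288, adjusted p = 0.253) and r = -0.41 (permutation p = 0.164, adjusted p = 0.491), with r at -0.70 in the lower and -0.25 in the upper series, and -0.67 without OCA replicates 1 and 2. Within the 6 OCA libraries alone the highest r was 0.90 for TGFBR1 with SMAD2, followed by 0.88 for TGFBR1 with SMAD4, 0.81 for SMAD2 with SMAD4 and 0.80 for SMAD2 with SMAD7, and the lowest was -0.83 for TGFBR2 with SMAD3. Within the 7 vehicle libraries the same pairs had r = -0.51, 0.30, -0.27, -0.30 and -0.34. The pairs were picked from the 21 for their extreme r in the OCA libraries, and that choice alone makes weaker values in vehicle likely. Over all libraries but OCA replicates 3 and 4, r was -0.11 for SMAD2 with SMAD4 and -0.32 for SMAD2 with SMAD7. These values within groups are descriptions and the difference between the groups was not tested. All points share a library and its scaling.

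Among 14709 other transcripts averaging 10 CPM or more, the pattern most like that of TGFB1 over the 13 libraries was that of ENST00000261978.9, at r = 0.96 and rho = 0.82. For SMAD3 it was that of ENST00000358402.8, at r = 0.90 and rho = 0.65. The highest r for the other 5 transcripts ran from 0.85 for SMAD2 to 0.93 for SMAD7. These are the highest of many and are given as a description, with no test. The files do not pair those IDs with gene names.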

How the data were processed

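RNA was measured in 13 tumours. Per the submitters' processing notes, FastQC, STAR, Salmon and DESeq2 were used, with the human build GRCh38.p14. Not given in the sources used here are versions, the transcript annotation and the handling of mouse reads. The authors deposited, per the file headers, an estimated count of reads and a TPM value per transcript and library.

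The 7 transcripts, with the symbols given for them, and the pathway gene list were chosen with earlier results of these data known. That list and the marker lists need gene names for transcript IDs and were not used here. The named transcripts are the 7 and, for TGFB1 and SMAD3, the most correlated transcript of at least 10 CPM.

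Estimated counts were rounded and transcripts filtered by edgeR 4.0.16 filterByExpr (minimum count 10, minimum total 15). After TMM scaling, the robust quasi-likelihood F test (two-sided) was run on all transcripts, adjusted by Benjamini-Hochberg, and 0.05 was the threshold. The fit was also run on simulated data. The outcome of that run is not given here, so no conclusion about the TGF-beta transcripts is drawn from it. SE is the size of the log2 fold change over the square root of F. Replicates are numbered in accession order and pair nothing. The p-values of the fits set the difference between groups against the spread between these libraries. Correlations used 100000 permutations, two-sided; they were planned as descriptions, and their p-values, the relation to library total and the interaction test were added after seeing the data. Alternatives were DESeq2 1.42.0, limma 3.58.1 (voom, and log2 TPM with pseudocounts 1 and 0.1), other scalings and filters, a label-series covariate, a length offset, and subsets of libraries. The group of 3 low-depth libraries and that of 3 libraries apart were known from an earlier analysis.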

Additional observations from a re-analysis of the deposited data

Results flagged for a closer look

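SMAD3 in vehicle replicate 3 lay far below the other vehicle libraries. Its transcript measured 8.83 TPM there, against 12.2 to 14.4 TPM in the other 6, and 58.4 CPM on the TMM scale, past Dixon's limit at the 95% level in both units. The other 26 of the 28 sets of values tested (7 transcripts, 2 groups, 2 units) held no such library, and chance flags about 1 in 20, or 1.4 in 28. The 2 units scale the same counts, so the 2 flags are the same observation and the sets are not independent. Without that library the log2 fold change of SMAD3 was -0.07 (edgeR adjusted p = 1).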

How the results depend on the processing

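No paired analysis was possible because the labels number no replicates across the groups. The count of 0 of the 7 transcripts past the threshold held in all 32 alternatives, and the count of 0 whose groups do not overlap in all 23 run for it. Of all tested transcripts, the share that did not overlap ran from 0.0767% with no low-count filter to 12.2% in the upper label series. In the lower label series it was 5.47%. At such shares a count of 0 of 7 says little about these transcripts. A mean of at least 5 CPM left SMAD2 untested, and DESeq2 after the filter gave SMAD2 no adjusted p. The count of 0 over all tested transcripts held in 26 of 32 alternatives. DESeq2 called 409 without and 12 after the low-count filter, and the count was 1 with limma on log2(TPM + 0.1) and 1 without the 3 libraries apart on the first component. Leaving out each library gave 0 to 1, with 1 without vehicle replicate 7 and 1 without OCA replicate 6. The cause was not tested. An unadjusted p under 0.05 was found in 1 alternative each for TGFB1 (without OCA replicate 6), SMAD4 (without vehicle replicate 2) and SMAD7 (without the 3 libraries apart). TGFB1 and SMAD4 kept their direction in all 32 alternatives. Signs turned within the upper label series for TGFBR1 (-0.358), SMAD2 (-0.0911), SMAD7 (-0.0639) and SMAD3 (0.0678), for SMAD2 with the length offset (-0.13), and without the 3 libraries apart for TGFBR2 (-0.0141) and SMAD3 (0.0256). SMAD3 also turned with weighted limma-voom (0.00924), a mean of at least 5 CPM (0.00632) and limma on log2(TPM + 1) and log2(TPM + 0.1) (0.0242 and 0.0261), and lay between -0.0728 and 0.0515 in the leave-one-out fits, above 0 without vehicle replicate 2 (0.0231), OCA replicate 1 (0.0515) or OCA replicate 2 (0.0190). The correlation of TGFB1 with library total lay between 0.25 and 0.72 when each of the 10 libraries was left out and was -0.26 in the lower label series. Mean TPM per group moved by less than 1 SD in every alternative run for it. Leaving out 1 library cannot move a group mean by 1 SD, and the other alternative rescales the same counts. That limit therefore says nothing about how stable the levels are.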
